A study of Danio rerio with 12 samples.

Results

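The matrix metalloproteinases and their inhibitors were described here in zebrafish neutrophils sorted from the trunk of larvae with or without a spinal cord injury. The group is 9 named genes: the gelatinases mmp9 and mmp2, the collagenase mmp13a, the membrane-type proteinases mmp14a, mmp14b and mmp25b, the sheddase adam8a, and the inhibitors timp2a and timp2b. They were found by symbol in the deposited count table. All 9 were present, in 10 of the 31263 zebrafish and EGFP entries of the table, because mmp13a has 2 entries with separate Ensembl identifiers.

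Matrix metalloproteinases are zinc-dependent enzymes that cut collagens, other matrix proteins and signalling proteins, and most are made as inactive precursors that must themselves be cut. Timp proteins bind the active enzymes and block them, and in mammals Timp2 also takes part in the activation of Mmp2 by the membrane-anchored Mmp14. Human neutrophils carry MMP9 and MMP25 in granules and release or expose them when activated.

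Cells expressing GFP under the mpx promoter, which marks neutrophils, were sorted from trunks, and 2500 to 4800 cells per library were sequenced with an adapted CEL-seq protocol that counts transcript 3′ ends. AMD3100 is an antagonist of the chemokine receptor Cxcr4, and the study asked which neutrophil programmes accompany better spinal cord regeneration when Cxcr4 is inhibited. Injured larvae had the cord transected at 3 days post-fertilization and were treated until 8 hours post-injury (hpi). Each group had 3 libraries, labelled as biological replicates.

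One group is injured larvae given 25 µM AMD3100 with 0.1% DMSO between 4 and 8 hpi, and another is injured larvae given DMSO, at a concentration that the labels do not state. The others are age-matched uninjured larvae given AMD3100 and uninjured larvae given DMSO. All larvae carried the mpx:GFP transgene, all tissue passed through a collagenase digestion before sorting, and the labels do not say how many larvae went into a library. A sort on this transgene takes every cell in which the promoter is active, so the libraries describe GFP-positive cells as a bulk. In bulk libraries, fewer cells of a type and less RNA per cell cannot be told apart. The p-values weigh each difference against the spread between the 3 libraries of a group, estimated from all 4 groups together.

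The libraries held between 655451 and 12173133 counts. A floor of 3 counts equalled 0.246 to 4.58 counts per 1e6 counts of the library (CPM). The neutrophil marker list was abundant in every library, but its summed level was lower after injury: 17940 to 29138 CPM in AMD3100-treated injured, 17703 to 23957 CPM in DMSO-treated injured, 50146 to 63068 CPM in AMD3100-treated uninjured and 41664 to 56798 CPM in DMSO-treated uninjured larvae. Levels here are CPM scaled by TMM factors, which correct for differences in library composition. The neutrophil peroxidase gene mpx had 940 to 1878 CPM over the 6 injured libraries and 2508 to 4410 CPM over the 6 uninjured ones. Replicate 1 of the AMD3100-treated injured group stood apart on the first principal components, had the fewest counts of all 12 libraries and held EGFP at 397 CPM of its unscaled total, against 1326 to 1935 CPM in the other 11. The main values that rest on it are also given without it.

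After injury, mmp9 and mmp25b rose in both treatments, and the second mmp13a entry rose when both treatments were averaged. Within 1 treatment the mmp9 and mmp25b results missed the threshold when some single libraries were left out. With AMD3100 they also missed it when only the groups compared were fitted. The averages over both treatments passed with any single library left out. For mmp25b, enough counts for testing came from the injured libraries. No entry of the group passed the test for AMD3100, in injured or in uninjured larvae. The remaining entries either missed the threshold in every comparison or had too few counts to be tested. The plot of levels by library shows the 7 testable entries.

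**Figure D1:**
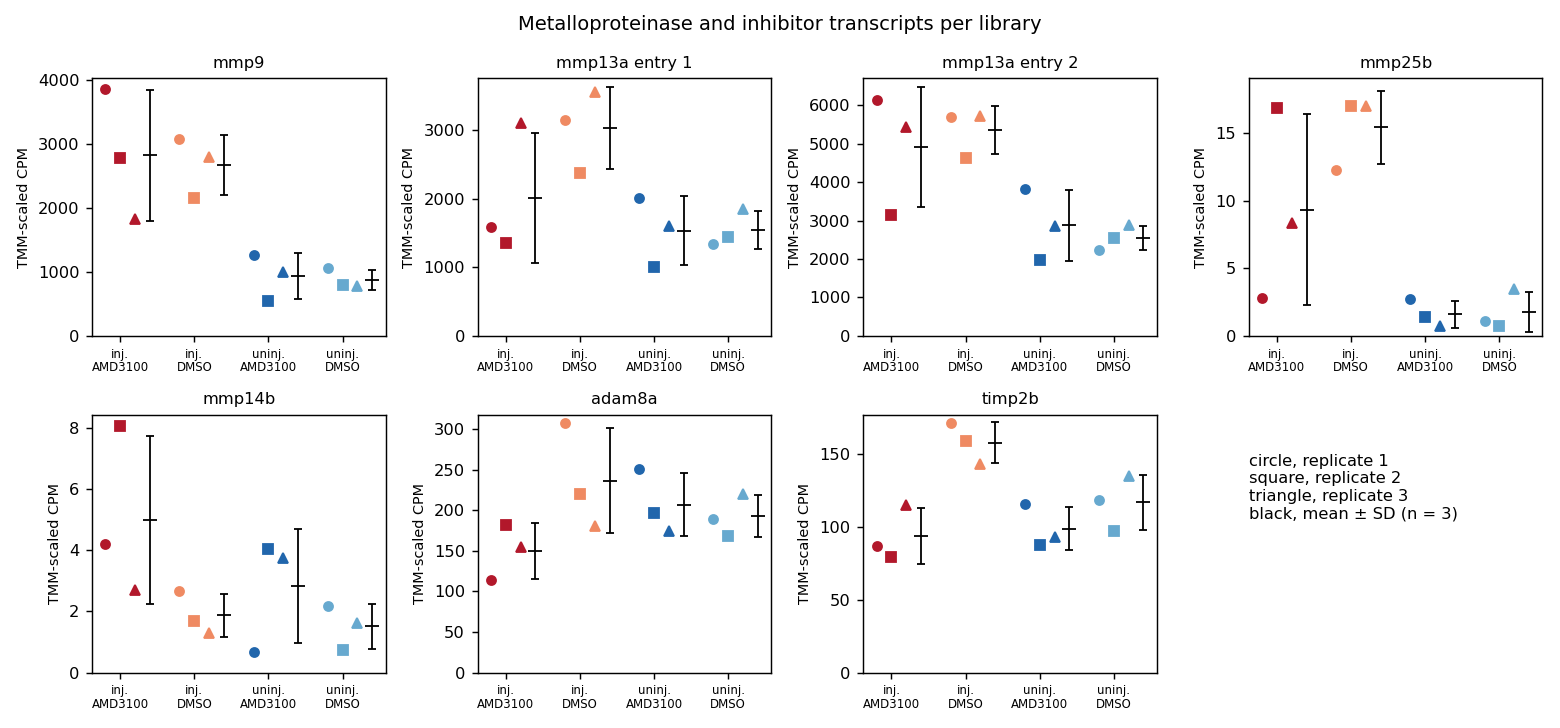
Levels of the 7 testable entries in each library, as TMM-scaled CPM on the y axis, with the 4 groups on the x axis; circles, squares and triangles are replicates 1, 2 and 3, and black bars are the mean ± SD of 3 libraries. The injured libraries lie above the uninjured ones of the same treatment for mmp9 (1823 to 3856 against 541 to 1258 CPM) and for mmp25b (2.80 to 17.0 against 0.732 to 3.45 CPM over both treatments, where replicate 1 of the AMD3100-treated injured group lies below the highest DMSO-treated uninjured library).

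Of the secreted enzymes, mmp9 encodes gelatinase B, which cuts denatured collagen and basement membrane collagen and is a product of activated neutrophils. It had 3856, 2778 and 1823 CPM in the 3 AMD3100-treated injured libraries and 3070, 2153 and 2799 CPM in the DMSO-treated injured ones. In uninjured larvae it had 1258, 541 and 997 CPM with AMD3100 and 1058, 790 and 783 CPM with DMSO. Every injured library was above every uninjured library of either treatment. The group means were 2819 ± 1017 CPM in AMD3100-treated injured and 2674 ± 471 CPM in DMSO-treated injured larvae, against 932 ± 363 CPM in AMD3100-treated uninjured and 877 ± 157 CPM in DMSO-treated uninjured larvae (SD, n = 3 each).

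With DMSO, mmp9 was 3.05-fold higher in injured than in uninjured larvae (95% interval 1.83 to 5.07, log2 fold change 1.61, SE 0.344, adjusted p = 0.0143 by edgeR's quasi-likelihood test with Benjamini-Hochberg adjustment over all entries tested). With AMD3100 it was 3.02-fold higher in injured larvae (1.82 to 5.03, log2 fold change 1.60, SE 0.344, adjusted p = 0.0152 by the same test). Injury thus went with a similar estimate in both treatments, and the difference between the 2 log2 fold changes was -0.01, with an interval of -1.02 to 1.00, by the edgeR interaction test (adjusted p = 1). Averaged over both treatments the log2 fold change was 1.60 (SE 0.243, edgeR adjusted p = 4.52e-04). Mitochondrially encoded genes took 19.0 to 26.8% of counts in DMSO-treated injured and 29.8 to 32.0% in DMSO-treated uninjured libraries, without overlap, and 14.0 to 27.7% in AMD3100-treated injured and 17.8 to 21.3% in AMD3100-treated uninjured ones, which overlapped. With those genes left out of the fit, mmp9 was higher in injured larvae by 1.62 with DMSO and by 1.62 over both treatments on the log2 scale. The part of this difference in the injury results was not tested.

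With 3 libraries a group, the mmp9 calls within one treatment were close to the threshold of 0.05. The DMSO call was lost without injured DMSO replicate 1 (edgeR adjusted p = 0.0509) or 3 (0.0533), or without uninjured DMSO replicate 2 (0.0643) or 3 (0.0722), at log2 fold changes of 1.50 to 1.55. The AMD3100 call was lost without uninjured AMD3100 replicate 2 (0.0769) or 3 (0.0521). Without injured AMD3100 replicate 1, the library that stood apart, the fold change in AMD3100 was 1.33 on the log2 scale (adjusted p = 0.0286). The average over both treatments passed in all 22 alternatives, with log2 fold changes of 1.47 to 1.77.

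The collagenase gene mmp13a is related to human MMP13, which cleaves fibrillar collagen. The names table given for zebrafish lists the first identifier (ENSDARG00000012395) and not the second (ENSDARG00000114451), and the deposited table credits 45 further counts to both jointly. How reads were divided between entries of the same symbol, not given in the sources used here, is unknown, so each entry's own level is uncertain and the sum of both is given as well.

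Entry 1 of mmp13a had 1584, 1356 and 3096 CPM in AMD3100-treated injured libraries and 3145, 2374 and 3545 CPM in DMSO-treated injured ones. In the uninjured libraries it had 2005, 996 and 1597 CPM with AMD3100 and 1342, 1433 and 1850 CPM with DMSO. Injured libraries were thus all above uninjured ones with DMSO, and overlapped with them with AMD3100. Entry 2 had 6144, 3147 and 5434 CPM in AMD3100-treated injured libraries and 5706, 4642 and 5714 CPM in DMSO-treated injured ones. In the uninjured libraries entry 2 had 3817, 1969 and 2850 CPM with AMD3100 and 2237, 2541 and 2874 CPM with DMSO. Its groups separated and overlapped in the same way as those of entry 1.

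The injury effect on mmp13a had a positive estimate for both entries, and passed the test for entry 2 over both treatments together. For entry 1 the log2 fold change was 0.97 with DMSO (interval 0.24 to 1.70, edgeR adjusted p = 0.121) and 0.39 with AMD3100 (-0.33 to 1.12, adjusted p = 0.570). For entry 2 it was 1.07 with DMSO (0.42 to 1.72, edgeR adjusted p = 0.0553) and 0.77 with AMD3100 (0.13 to 1.41, adjusted p = 0.164). The DMSO value of entry 2 passed by DESeq2 (adjusted p = 0.0214), by limma-voom (0.0358), and without injured AMD3100 replicate 1 (0.0224) or 2 (0.0328) or uninjured AMD3100 replicate 1 (0.0481). In all it passed in 8 of 22 alternatives and missed the threshold in 14, with adjusted p of 0.00617 to 0.164. Over both treatments entry 2 was 1.89-fold higher in injured larvae (1.38 to 2.60, log2 fold change 0.92, SE 0.214, adjusted p = 0.00924), a call made in all 21 alternatives in which the entry was kept. Entry 1 over both treatments gave 0.68 (edgeR adjusted p = 0.0685).

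Summed to 1 gene, mmp13a averaged 6921 ± 2131 CPM in AMD3100-treated injured and 8376 ± 1195 CPM in DMSO-treated injured larvae. It averaged 4412 ± 1429 CPM in AMD3100-treated uninjured and 4092 ± 582 CPM in DMSO-treated uninjured larvae (SD, n = 3 each). The fit with summed entries, chosen after seeing the data, gave log2 fold changes for injury of 0.65 with AMD3100 (edgeR adjusted p = 0.252), 1.03 with DMSO (0.0659) and 0.84 over both treatments (0.0160). The ratio of entry 2 to entry 1 was 3.88 in replicate 1 of the AMD3100-treated injured group and 1.55 to 2.32 in the other 11 libraries. Without that library, entry 2 over both treatments was higher by 0.84 on the log2 scale (adjusted p = 0.00873) and entry 1 by 0.77 (adjusted p = 0.0348). Entry 1 also passed without injured AMD3100 replicate 2, at 0.79 (edgeR adjusted p = 0.0409), without uninjured AMD3100 replicate 1, at 0.83 (0.0446), and by DESeq2, at 0.67 (0.0394).

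The other secreted gelatinase gene, mmp2, had 19 counts in all, spread over 10 libraries, with at most 4 in 1 library. It was below the low-count filter, which asked for about 10 counts in a library of median depth in at least 3 libraries. Its level lay at or under the floor of 3 counts in all but the library with 4, and no change could be read at this depth.

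Among the membrane-bound enzymes, mmp25b is related to human MMP25, known as leukolysin, which is anchored in the membrane of neutrophils. It had 2.80, 16.8 and 8.35 CPM in AMD3100-treated injured libraries and 12.3, 17.0 and 17.0 CPM in DMSO-treated injured ones. In the uninjured libraries it had 2.70, 1.38 and 0.751 CPM with AMD3100 and 1.09, 0.732 and 3.45 CPM with DMSO. These levels rest on few reads: 2, 117 and 102 counts and 37, 192 and 106 counts in the injured libraries with AMD3100 and DMSO, against 8, 15 and 3 counts and 2, 1 and 19 counts in the uninjured ones.

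Injured libraries were above uninjured ones in each treatment, though by little for replicate 1 of the AMD3100-treated injured group, where 2 counts gave 2.80 CPM. With DMSO, mmp25b was 7.16-fold higher in injured larvae (95% interval 2.91 to 17.6, log2 fold change 2.84, SE 0.609, edgeR adjusted p = 0.0144). With AMD3100 it was 6.68-fold higher in injured larvae (2.74 to 16.3, log2 fold change 2.74, SE 0.603, adjusted p = 0.0170). Over both treatments the log2 fold change was 2.79 (SE 0.429, adjusted p = 4.91e-04), and this call was made in all 21 alternatives in which the gene was kept. The difference between treatments was -0.10 on the log2 scale, with a wide interval of -2.06 to 1.86 by the edgeR interaction test.

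The level of the low-count filter, 1.98 CPM of the unscaled total, was reached by mmp25b in all 6 injured libraries and in 1 library of each uninjured group. It passed the filter through the injured libraries, and without the filter its log2 fold changes were 2.80 with AMD3100 and 2.89 with DMSO. The DMSO call was lost without injured DMSO replicate 2 (edgeR adjusted p = 0.0602) or 3 (0.0568), or without uninjured DMSO replicate 1 (0.0577) or 2 (0.0584). Without uninjured DMSO replicate 3 the DMSO estimate was 4.03, and the average over both treatments was 3.42. That deeper library held 19 counts (3.45 CPM), against 2 (1.09 CPM) and 1 (0.732 CPM) in the others of its group. The DMSO estimate of 4.03 thus rests on 2 and 1 counts on the uninjured side. The AMD3100 call was lost without injured AMD3100 replicate 2 (log2 fold change 2.11, adjusted p = 0.0895) or uninjured AMD3100 replicate 2 (0.0995) or 3 (0.0853). Without injured AMD3100 replicate 1 it was 3.04 (adjusted p = 0.00778).

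The genes mmp14a and mmp14b are the zebrafish counterparts of mammalian Mmp14, a transmembrane collagenase that also activates Mmp2. The first, mmp14a, had 7 counts in 5 libraries and was not tested. The second, mmp14b, had 4.21, 8.05 and 2.70 CPM in AMD3100-treated injured libraries and 2.66, 1.68 and 1.28 CPM in DMSO-treated injured ones. In the uninjured libraries mmp14b had 0.674, 4.06 and 3.75 CPM with AMD3100 and 2.18, 0.732 and 1.64 CPM with DMSO. Of these values 3 rest on 3 or fewer counts, and the injured and uninjured groups overlapped in both treatments.

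For mmp14b the injury log2 fold change was 0.78 with AMD3100 (interval -0.62 to 2.18, edgeR adjusted p = 0.555) and 0.20 with DMSO (-1.40 to 1.81, adjusted p = 0.912). The AMD3100-treated injured libraries were all above the DMSO-treated injured ones, by a narrow margin, and that log2 fold change was 1.48 (0.03 to 2.93, adjusted p = 0.901). It was 0.81 without injured AMD3100 replicate 2 and 1.55 without injured AMD3100 replicate 1. The injury value with AMD3100 was 0.14 without injured AMD3100 replicate 2 and 0.87 without replicate 1. Between the AMD3100-treated and the DMSO-treated injured larvae 10.3% of all entries had libraries that did not overlap, and 4.66% were higher with AMD3100 without overlap. The macrophage marker list also separated there, with summed levels of 50.5 to 83.5 CPM in AMD3100-treated injured and 30.0 to 40.8 CPM in DMSO-treated injured larvae; 1 of its 13 genes in the table, grn1, was at 0. The gene lgmn alone had 29.4 to 52.7 CPM against 11.5 to 18.3 CPM, so the sums lean on it. Of the list's 8 testable genes 7 had a positive estimate for AMD3100 and 1 a negative one. None of the 8 changed between these groups by edgeR, and the list's part in the mmp14b values was not tested.

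The sheddase gene adam8a is related to mammalian Adam8, a transmembrane protease of leukocytes that releases surface receptors and adhesion molecules. It had 114, 182 and 155 CPM in AMD3100-treated injured libraries, and 307, 220 and 181 CPM in DMSO-treated injured ones. In the uninjured libraries it had 250, 196 and 174 CPM with AMD3100 and 189, 168 and 220 CPM with DMSO. All 4 groups overlapped with their partner groups, the closest case being the injured ones, where the highest AMD3100 library (182 CPM) lay just above the lowest DMSO library (181 CPM). The injury log2 fold change was -0.45 with AMD3100 (-1.04 to 0.13, edgeR adjusted p = 0.387) and 0.29 with DMSO (-0.29 to 0.88, adjusted p = 0.604). The estimates have opposite signs, but their difference of -0.75 had an interval of -1.58 to 0.08 and an adjusted p of 1 by the edgeR interaction test. Without injured AMD3100 replicate 1 the injury value with AMD3100 was -0.28.

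The inhibitor genes timp2a and timp2b correspond to mammalian Timp2. For timp2a the table held 1 count in a single library, an AMD3100-treated uninjured one. The other, timp2b, had 86.9, 79.1 and 115 CPM in AMD3100-treated injured libraries and 171, 159 and 143 CPM in DMSO-treated injured ones. In the uninjured libraries timp2b had 116, 87.3 and 93.3 CPM with AMD3100 and 118, 97.4 and 135 CPM with DMSO. The DMSO-treated injured libraries were the 3 highest of all 12.

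No test of timp2b passed. With AMD3100 its injury log2 fold change was -0.07 (-0.59 to 0.46, edgeR adjusted p = 0.921), and with DMSO it was 0.43 (-0.09 to 0.95, adjusted p = 0.359). All 3 AMD3100-treated injured libraries lay below all 3 DMSO-treated injured ones, as 5.67% of all entries did, with a log2 fold change of -0.75 (SE 0.247, interval -1.27 to -0.22, adjusted p = 0.901). Without replicate 1 of the AMD3100-treated injured group it was -0.69 (adjusted p = 1). In uninjured larvae the AMD3100 log2 fold change of timp2b was -0.25 (-0.77 to 0.28, adjusted p = 0.991).

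**Figure D2:**
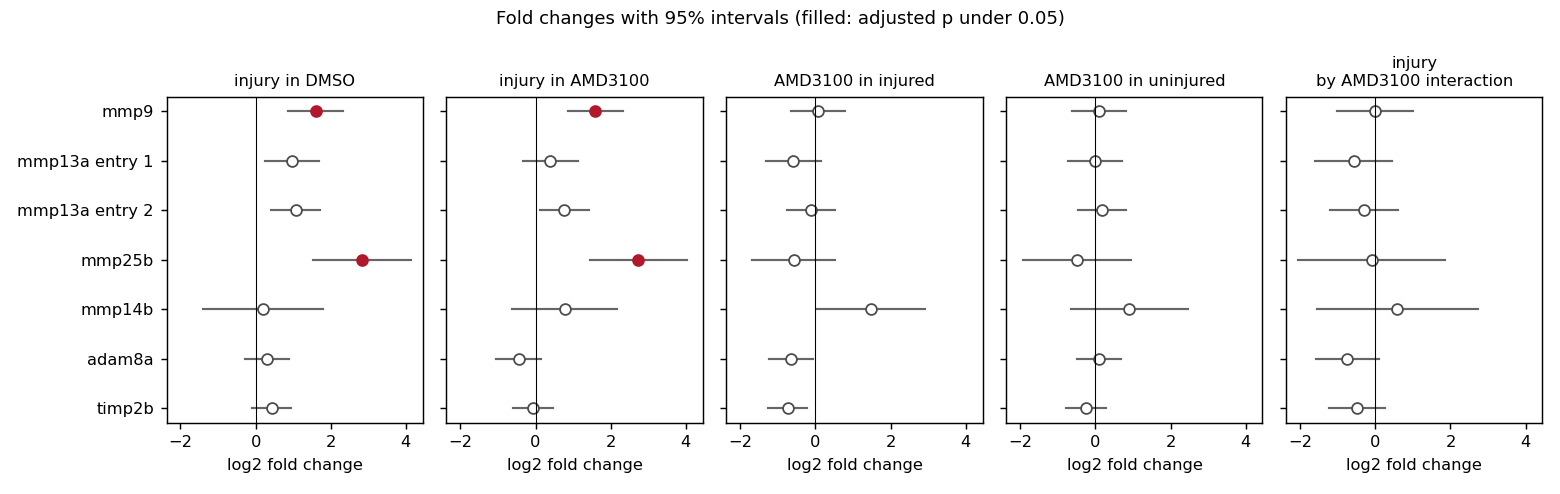
Log2 fold changes of the 7 testable entries (x axis) in 5 comparisons, with 95% intervals as lines; filled points have an edgeR adjusted p under 0.05. The filled points are mmp9 (1.61 with DMSO, 1.60 with AMD3100) and mmp25b (2.84 with DMSO, 2.74 with AMD3100) in the injury comparisons, and no point is filled in the AMD3100 comparisons or the interaction.

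Counted together, 2 of the 7 testable entries rose after injury with DMSO and none fell, where 5.19% of all 8453 tested entries changed, 2.86% higher and 2.33% lower. With AMD3100 the count was again 2 of 7 higher and none lower, where 5.42% of all entries changed, 3.00% higher and 2.41% lower. Over both treatments 3 of 7 rose, where 16.0% of all entries changed, 7.97% higher and 8.01% lower. The median log2 fold change of the 7 entries was 0.97 with DMSO, 0.77 with AMD3100 and 0.68 over both treatments, beside medians of -0.02, -0.07 and -0.05 over all entries. In the DMSO comparison 5 entries had libraries that did not overlap, all of them higher after injury, where 29.6% of all entries did not overlap and 15.9% were higher without overlap. With AMD3100 these were mmp9 and mmp25b, where 24.5% of all entries did not overlap and 10.5% were higher without overlap. For mmp25b that separation was 2.80 against 2.70 CPM, and the 2.80 CPM came from 2 counts, below the floor of 3 counts. The genes were chosen with earlier results of these data known, so these counts and medians describe the list and are no test of it. They hold mmp13a as 2 entries, and mmp25b, which passed the low-count filter through the injured libraries.

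The AMD3100 comparisons address whether Cxcr4 inhibition moved these transcripts. In injured larvae none of the 7 entries passed, and neither did any of the 8453 entries (0.00%) by edgeR; 3 of the 7 and 466 of all entries had an unadjusted p under 0.05. DESeq2 called 1 entry there and limma-voom none. In uninjured larvae none of the 7 passed by edgeR and none had an unadjusted p under 0.05, where 0.0118% of all entries, a single one, passed. The interaction called none of the 7 and 0.00% of all entries by edgeR, with 265 entries at an unadjusted p under 0.05, and DESeq2 and limma-voom called none.

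The intervals show what size of AMD3100 effect these libraries leave possible. For mmp9 the log2 fold change of AMD3100 was 0.08 in injured larvae (-0.64 to 0.79) and 0.09 in uninjured larvae (-0.63 to 0.80). In injured larvae it was -0.59 for mmp13a entry 1 (-1.31 to 0.14), -0.13 for entry 2 (-0.77 to 0.51) and -0.58 for mmp25b (-1.68 to 0.52). Without injured AMD3100 replicate 1 these values were -0.21 for mmp9, -0.43 and -0.31 for the mmp13a entries and -0.30 for mmp25b, and without injured AMD3100 replicate 2 the mmp25b value was -1.22. The 3 entries with an unadjusted p under 0.05 in injured larvae were timp2b, adam8a and mmp14b, each with an adjusted p of 0.901 by edgeR. The adam8a log2 fold change was -0.64, with an interval of -1.23 to -0.06, and -0.48 without injured AMD3100 replicate 1. The injury and AMD3100 comparisons share libraries, so their values are not independent.

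Ratios between 2 genes of the same library do not depend on how libraries are scaled, and were compared between libraries only. The ratio of mmp9 to timp2b counts was 44.4, 35.1 and 15.8 in AMD3100-treated injured libraries and between 13.5 and 19.6 in the 3 DMSO-treated injured ones. It was 10.9, 6.19 and 10.7 in AMD3100-treated uninjured libraries and 8.96, 8.11 and 5.80 in DMSO-treated uninjured ones. All 6 injured libraries exceeded all 6 uninjured ones, whereas the AMD3100 and DMSO libraries overlapped within the injured larvae and within the uninjured larvae. The ratio of summed mmp13a to timp2b was 57.0 to 88.9 in AMD3100-treated injured and 44.1 to 64.7 in DMSO-treated injured libraries. It was at most 50.4 in AMD3100-treated uninjured libraries and 30.3 to 40.8 in DMSO-treated uninjured ones, so that each treatment's injured and uninjured libraries did not overlap. The summed mmp13a level itself overlapped with AMD3100, at 4503 to 8530 CPM in injured and 2965 to 5823 CPM in uninjured libraries. There the separation of the ratio thus also rests on the timp2b counts.

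The whole group of 10 entries took 0.919 to 1.28% of all counts in AMD3100-treated injured and 1.03 to 1.38% in DMSO-treated injured libraries. In uninjured libraries it took 0.358 to 0.753% with AMD3100 and 0.405 to 0.501% with DMSO. The injured and uninjured libraries did not overlap in this share. The entries of mmp9 and mmp13a held 92.4 to 98.2% of the group's counts in every library, so the share mostly restates their levels. It is a share of the unscaled total, which includes the mitochondrially encoded genes.

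**Figure D3:**
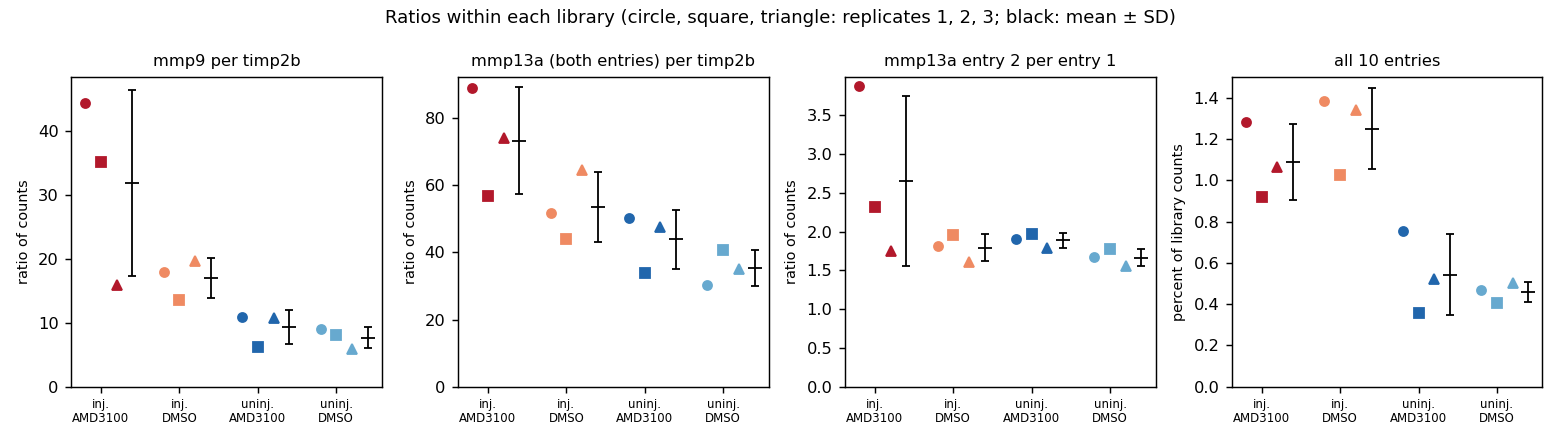
Ratios of counts within each library (y axes of the first 3 panels) and the share of all counts taken by the 10 entries (y axis of the last panel, percent), by group on the x axis; circles, squares and triangles are replicates 1, 2 and 3, and black bars are the mean ± SD of 3 libraries. The mmp9 to timp2b ratio is 13.5 to 44.4 in injured and 5.80 to 10.9 in uninjured libraries, and the ratio of mmp13a entry 2 to entry 1 is highest, at 3.88, in replicate 1 of the AMD3100-treated injured group.

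The injury comparisons of mmp9 and mmp25b were read beside markers of the sorted cells and of cells a trunk sort could carry along. The summed neutrophil list was lower in every injured library than in every uninjured one, the opposite direction to mmp9 and mmp25b. Of its 12 testable genes, cybb, a subunit of the oxidative burst oxidase, rose after injury with DMSO, whereas mpx, cpa5 and npsn fell. With AMD3100 cybb rose and mpx, cpa5, npsn, lect2l and srgn fell by the same edgeR test. Of the list's 12 log2 fold changes for injury, 5 were positive and 7 negative with DMSO, and 4 were positive and 8 negative with AMD3100. The gene npsn alone had 6802 to 35508 CPM, so the sum leans on single genes. The lysozyme gene lyz had its highest level, 10483 CPM, in replicate 1 of the AMD3100-treated injured group. It had 1658 to 2826 CPM in the other injured libraries and 4405 to 8596 CPM in the uninjured ones.

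The macrophage list summed to 50.5 to 83.5 CPM in AMD3100-treated injured and 30.0 to 40.8 CPM in DMSO-treated injured larvae. Its sums in uninjured larvae were 45.5 to 79.8 CPM with AMD3100 and 28.6 to 74.1 CPM with DMSO, so injured and uninjured libraries overlapped in both treatments. The macrophage gene mpeg1.1 fell after injury over both treatments, and so did c1qb, c1qc, csf1rb and ccl34b.1, whereas lgmn rose. The mesenchyme and fibroblast list, cells that are a usual source of Mmp2 and Mmp14, summed to 23.8 to 41.5 CPM in AMD3100-treated injured and 27.5 to 50.5 CPM in DMSO-treated injured larvae. In uninjured larvae it summed to 25.4 to 45.8 CPM with AMD3100 and 15.6 to 60.4 CPM with DMSO, with col1a1a and fbln1 at 0 in all libraries and none of its 3 testable genes changed.

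Skeletal muscle transcripts were the largest foreign signal. Their list summed to 1263 to 12266 CPM in AMD3100-treated injured, 746 to 9088 CPM in DMSO-treated injured, 12451 to 45993 CPM in AMD3100-treated uninjured and 1571 to 21817 CPM in DMSO-treated uninjured larvae; pvalb2 and 1 of its myhz1.1 entries were at 0. All 3 AMD3100-treated uninjured libraries were thus above all 3 AMD3100-treated injured ones, and the DMSO groups overlapped. Of its 13 testable genes, 1 fell after injury with AMD3100 and none changed with DMSO. Over both treatments ckmb and tnnt3b fell by edgeR. All 13 log2 fold changes for injury were negative with AMD3100, and 11 were negative and 2 positive with DMSO. The part of muscle RNA in the injury results was not tested. The skin list summed to 272 to 590 CPM in AMD3100-treated injured and 318 to 564 CPM in DMSO-treated injured larvae, against 241 to 594 CPM in AMD3100-treated uninjured and 226 to 560 CPM in DMSO-treated uninjured larvae, so its sums overlapped in both treatments. Of its 11 testable genes the claudin gene cldni was called higher after injury with DMSO, and cldni and the cadherin gene cdh1 over both treatments; 8 of 11 estimates were positive with DMSO and 6 of 11 with AMD3100. Erythroid markers were lower after injury with DMSO, at 3.85 to 16.9 CPM in injured and 40.8 to 181 CPM in uninjured larvae. Of the 8 testable erythroid entries all had negative estimates there, and hbbe1.2 and slc4a1a were called lower by edgeR. Over both treatments gata1a was called lower as well. With AMD3100 the erythroid sums overlapped, at 9.74 to 68.8 CPM in injured and 7.75 to 71.0 CPM in uninjured larvae, and none of the 8 was called for injury. Notochord and cartilage markers were lower after injury with AMD3100, at 12.6 to 32.7 CPM in injured and 47.6 to 90.6 CPM in uninjured larvae, and so were endothelial markers, at 7.01 to 9.92 against 11.0 to 13.8 CPM. With DMSO the notochord and cartilage sums overlapped, at 6.63 to 16.6 CPM in injured and 8.16 to 13.1 CPM in uninjured larvae. The list's gene col9a1b was the only entry that edgeR called for AMD3100 in uninjured larvae, where it was higher with AMD3100. Neuron and glia markers also separated with AMD3100, at 2.78 to 11.2 CPM in injured and 12.1 to 18.5 CPM in uninjured larvae; over both treatments sox10 was called higher and elavl4 lower. By edgeR no testable gene of the notochord and cartilage (4), neuron and glia (5) or endothelial list (1, fli1a) was called for injury with AMD3100. The fli1a levels overlapped in that comparison, at 6.30 to 9.20 CPM in injured and 8.39 to 12.5 CPM in uninjured larvae. Of all entries 24.5% had libraries that did not overlap there. The part of the listed cell types was not tested.

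**Figure D4:**
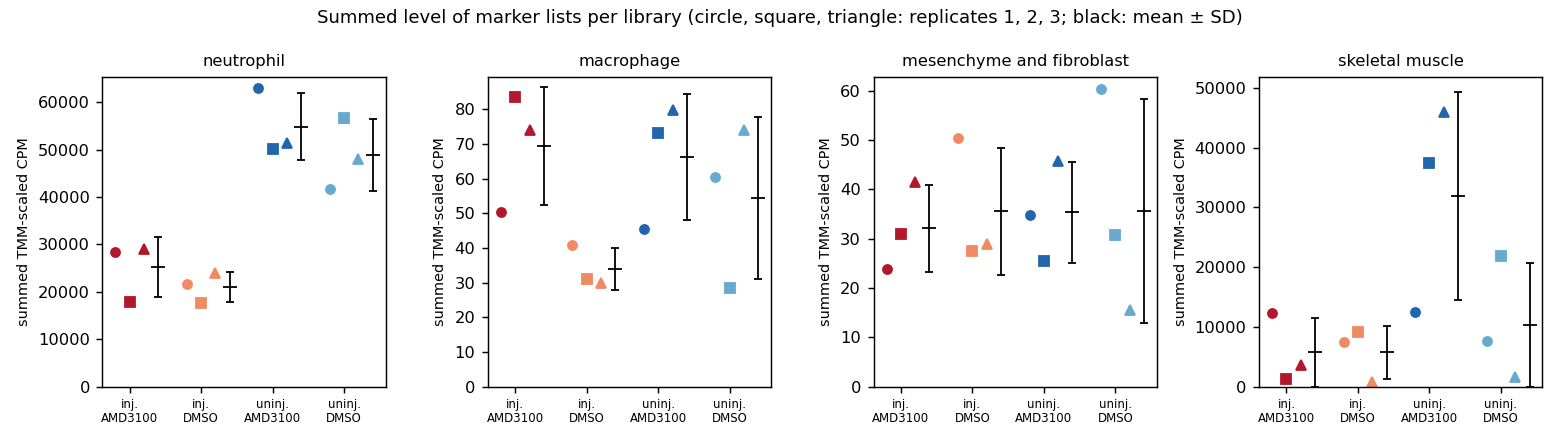
Summed TMM-scaled CPM of 4 marker lists (y axes) in each library, by group on the x axis; circles, squares and triangles are replicates 1, 2 and 3, and black bars are the mean ± SD of 3 libraries, drawn down to 0 where the mean minus the SD is lower. The neutrophil sums are 17703 to 29138 CPM in injured and 41664 to 63068 CPM in uninjured libraries without overlap, while the macrophage and mesenchyme sums overlap between injured and uninjured larvae.

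Related genes of the same system were mostly below the filter. Of the 17 other matrix metalloproteinase genes found in the table none was testable: 6 had no count in any library, and the highest total was 31 counts, for the membrane-type gene mmp17b. None of the 5 other inhibitor genes found was testable either. The Timp genes timp4.1, timp4.2 and timp4.3 and the membrane-anchored inhibitor reck had no counts, and the protease-trapping a2ml had 1. Of the Mmp and inhibitor genes listed, those with testable counts were therefore mmp9, mmp13a, mmp25b, mmp14b and timp2b.

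Among the other Adam and Adamts proteases 7 of the 23 found were testable, and none changed in any comparison, where 16.0% of all entries changed after injury over both treatments. Their median log2 fold change in that comparison was -0.23. The nearest relative in the list, adam8b, had -0.62 (interval -1.51 to 0.28, edgeR adjusted p = 0.350). Of the 20 genes reported here for activators of Mmp precursors and the plasminogen system, serpin inhibitor genes included, 7 were testable. They were furina, furinb, pcsk7 and the serpin genes serpine2, serpinb1, serpinb1l1 and serpinb1l3, while the plasminogen gene plg was not testable. None of the 7 passed the edgeR test in any comparison, where 16.0% of all entries changed after injury over both treatments. Their median log2 fold change in that comparison was 0.06.

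Of the 28 matrix substrates and proteins that dock Mmps 9 were testable and 1 changed, in each treatment and over both, where 5.19% of all entries changed with DMSO, 5.42% with AMD3100 and 16.0% over both treatments. The fibronectin gene fn1b, whose product is a matrix protein of wounds, averaged 47.1 ± 53.9 CPM in AMD3100-treated injured and 99.2 ± 57.7 CPM in DMSO-treated injured larvae. It averaged 7.02 ± 2.41 CPM in AMD3100-treated uninjured and 2.85 ± 3.22 CPM in DMSO-treated uninjured larvae (SD, n = 3 each). The fn1b log2 fold change for injury was 5.36 with DMSO (SE 0.927, edgeR adjusted p = 0.00384), 2.86 with AMD3100 (SE 0.763, adjusted p = 0.0425) and 4.11 over both treatments (SE 0.601, adjusted p = 3.41e-04). The fn1b call with AMD3100 held in 15 of 23 alternatives and was lost without injured AMD3100 replicate 2 (log2 fold change 1.35, adjusted p = 0.290). Without injured AMD3100 replicate 1 it was 3.27 (adjusted p = 0.0215). The call was also lost without injured DMSO replicate 2 (0.0575), without uninjured AMD3100 replicate 1 (0.0801), 2 (0.177) or 3 (0.130), and without uninjured DMSO replicate 2 (0.0564). With DMSO every alternative kept the call, with estimates of 4.55 without uninjured DMSO replicate 3 to 6.97 without uninjured DMSO replicate 1, and the average over both treatments was 3.35 without injured AMD3100 replicate 2 and 4.95 without uninjured DMSO replicate 1.

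The AP-1 and NF-kB families include known transcriptional activators of mammalian MMP9 and MMP13. The list of 17 genes read here also holds ets1, ets2 and stat3, which belong to neither family. Of these 17 genes 12 were testable, and 2 changed over both treatments, a share close to the 16.0% of all entries. The median log2 fold change for injury over both treatments was 0.02 for the list. The AP-1 subunit gene jun rose by 0.82 (SE 0.207, edgeR adjusted p = 0.0146), a call that held in all 22 alternatives. The AP-1 subunit gene fosl2 fell by 1.01 (SE 0.290, adjusted p = 0.0281) and held in 15 of 22. The lost fosl2 calls were those without injured AMD3100 replicate 2, injured DMSO replicate 2 or 3, uninjured AMD3100 replicate 2 or 3, or uninjured DMSO replicate 1 or 3, at adjusted p of 0.0535 to 0.0775. No gene of these lists changed between AMD3100 and DMSO, in injured or in uninjured larvae, or in the interaction.

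**Figure D5:**
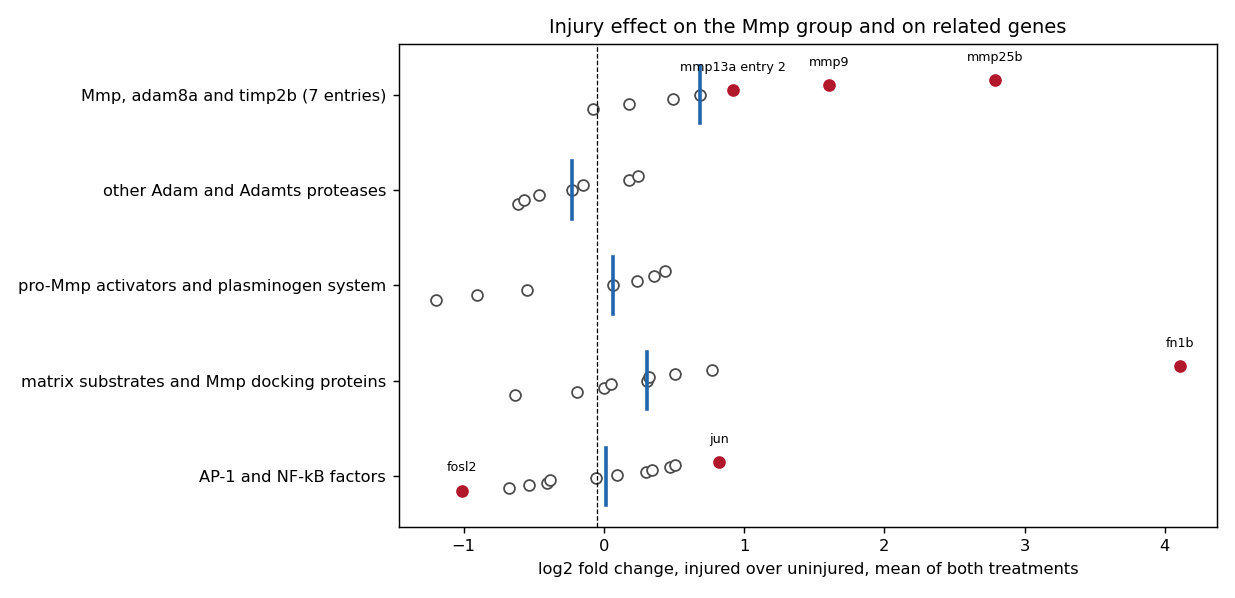
Log2 fold changes for injury averaged over both treatments (x axis) of the 7 entries and of the testable genes of 4 related lists; each point is a gene, filled where the edgeR adjusted p was under 0.05, blue bars are list medians and the dashed line is the median of all 8453 entries (-0.05). Filled points are mmp9, mmp25b and mmp13a entry 2 in the first list and fn1b, jun and fosl2 in the others. None is filled among the other Adam and Adamts proteases or in the list of activators and the plasminogen system, which includes serpin inhibitor genes.

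Across the 12 libraries the entries did not move as one. The correlation of log2 levels was 0.86 between mmp9 and mmp13a entry 2, 0.73 between mmp9 and mmp25b and 0.82 between the 2 mmp13a entries. After subtraction of the group means these were 0.49, -0.23 and 0.74. The inhibitor gene timp2b correlated at 0.76 with mmp13a entry 1, and at 0.74 after subtraction, but at 0.23 with mmp9. These are descriptions over 12 libraries that share 4 group means, depth and composition.

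The same measure was taken over 2743 genes of at least 20 CPM, leaving out entries shared by several genes and genes with clone-based names. Among these, the genes most like mmp9 were cybb (0.96), pdzd8 (0.96), the thioredoxin gene txn (0.96), pgm2 (0.96) and the proteasome gene psmc6 (0.96). For mmp13a entry 2 they were sept2 (0.95), nutf2, cacybp, mid1ip1b and jak1 (0.89), and for entry 1 ptpn11a (0.87), lsm12b, sptlc2a, hnrnpk and erbin (0.82). For adam8a they were ylpm1 (0.91), crebzf, ap3m1, rab5aa and znf318 (0.80). For timp2b they were prkcea (0.90), ptpn11a, selenos, ddx3xa and jmjd1cb (0.82), so ptpn11a stood in the lists of both timp2b and mmp13a entry 1.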

How the data were processed

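The deposited values are raw counts of reads per gene, without normalization, in 1 table of 12 libraries; per the submitters' processing notes, the tools include BWA and DESeq2 1.38 and the build is GRCz11. A collapse of molecular identifiers, not given in the sources used here, is unknown, so floors of 3 counts cover counting error only. Groups were taken from the labels. The 31263 zebrafish and EGFP entries (88 ERCC entries left out) were filtered by filterByExpr (minimum count 10, minimum total 15), which kept 8453, and were scaled by TMM. In R 4.3.3, edgeR 4.0.16 fitted a quasi-likelihood model with 1 coefficient per group to all 12 libraries; two-sided F tests were adjusted by Benjamini-Hochberg over all tested entries, and an adjusted p under 0.05 calls a change. Standard errors and 95% intervals were derived from the F statistics of each entry, and the intervals were not adjusted for the number of entries tested.

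Alternatives were DESeq2 1.42.0, limma-voom (limma 3.58.1), other size factors, other filters, a replicate block, the groups of a contrast alone, no mitochondrially encoded genes, thinning to the shallowest library and leaving out each library; summing the mmp13a entries was added after the data were seen. The pipeline was tested on simulated counts. No 2 libraries of a group were alike within counting noise. The genes and lists were chosen with earlier results of these data known. All 9 genes are named, as are listed pathway genes past the threshold (up to 4 per list and direction) and the 5 genes closest to each abundant entry by Pearson correlation of log2(CPM + 1). The search for the closest genes left out entries shared by several genes and genes with clone-based names. Sequences and coordinates are not used here. The list of activators and the plasminogen system leaves out 1 gene that is not reported here.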

Additional observations from a re-analysis of the deposited data

How the results depend on the processing

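Every injury log2 fold change of mmp9, mmp25b and mmp13a entry 2 that passed the threshold kept its sign in all alternatives run. The averages over both treatments also kept their calls in all alternatives that were run for them and kept the entry. A fit of only the groups compared was not run for the averages, so they could not lose a call there. Calls within 1 treatment depended on single libraries. They also depended on fitting only the groups compared, which ended the AMD3100 calls of mmp9 (edgeR adjusted p = 0.0930), mmp25b (0.0719) and fn1b (0.0909). Thinned to the shallowest library, mmp25b and mmp14b had too few counts to be kept. Before thinning, mmp25b had 604 counts and mmp14b had 202 over all libraries. The causes of the changes listed here were not tested.

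Of the 7 entries, 2 changed after injury with DMSO. With thinning 1 changed, and with only the groups compared 4 (mmp9, mmp25b and both mmp13a entries) did. Leaving out 1 library gave 0 to 3, with none left without injured DMSO replicate 3 or uninjured DMSO replicate 2, and 1 left without injured DMSO replicate 1 or 2 or uninjured DMSO replicate 1 or 3. With AMD3100 2 also changed, 1 with thinning and 0 with only the groups compared. Leaving out 1 library gave 0 to 2, with none left without uninjured AMD3100 replicate 2 or 3 and 1 left without injured AMD3100 replicate 2.

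Over all genes, injury with DMSO called 439, against 723 by DESeq2, 701 without a low-count filter, 226 with thinning, 722 with only the groups compared and 163 to 659 with 1 library left out. Injury with AMD3100 called 458 (254 higher and 204 lower), against 731 by DESeq2, 707 by limma-voom (314 higher and 393 lower), 714 without a filter, 165 with only the groups compared and 119 to 574 with 1 library left out. Over both treatments 1351 were called, and 775 with thinning. AMD3100 in injured larvae called 0 by edgeR, 1 by DESeq2, 105 without a filter and 0 to 72 with 1 library left out, the 72 being without injured AMD3100 replicate 3. AMD3100 in uninjured larvae called 1 by edgeR, 19 by DESeq2, 0 by limma-voom, with thinning or with only the groups compared, 145 without a filter and 0 to 2 with 1 library left out. The interaction called 0, 68 without a filter and 0 to 2 with 1 library left out.

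The values that changed sign were all short of the threshold. For the mmp9 interaction (-0.01) they were 0.072 by DESeq2, 0.0030 by limma-voom, 0.072 with RLE factors, 0.071 with upper-quartile factors, 0.060 with a 10 CPM filter, 0.0085 with the replicate block, 0.0065 without mitochondrially encoded genes and 0.14 with thinning. The mmp25b interaction was 0.087 by limma-voom. The mmp13a entry 1 value for AMD3100 in uninjured larvae (-0.01) was 0.0007 with upper-quartile factors, 0.0025 with thinning and 0.11 with summed entries. With 1 library left out, injury log2 fold changes crossed 0 for mmp14b with DMSO (-0.069 to 0.43), mmp13a entry 1 with AMD3100 (-0.014 to 0.69), timp2b with AMD3100 (-0.20 to 0.12) and adam8a over both treatments (-0.17 to 0.035). For AMD3100 in injured larvae the values that crossed 0 were those of mmp13a entry 2 (-0.31 to 0.12) and mmp9 (-0.21 to 0.34). In uninjured larvae they were mmp13a entry 1 (-0.29 to 0.22) and entry 2 (-0.12 to 0.39), mmp25b (-0.94 to 0.68), adam8a (-0.088 to 0.20) and mmp9 (-0.22 to 0.36). The interaction crossed 0 for mmp25b (-1.22 to 0.40), mmp14b (-0.051 to 1.04) and mmp9 (-0.30 to 0.31).

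For libraries with the same replicate number, deviations from the group means had correlations of -0.12 to 0.15 over 18 pairs of libraries. Pairs with different numbers had -0.17 to 0.18 over 36 pairs. With 3 libraries per group these values cannot exclude a pairing, and the labels do not say whether the number marks one. With the replicate block, 2, 2 and 3 of the 7 entries changed after injury with DMSO, with AMD3100 and over both treatments, as without it, and over all genes the block gave 353, 325 and 1187 calls. The block also ended the fn1b call with AMD3100 (adjusted p = 0.0647).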
